A study of Mus musculus with 4 samples.

Results

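The Gadd45 genes and the base excision repair genes linked to DNA demethylation were followed in mouse embryonic stem cells in which PRDM14 was overexpressed and Tet1 and Tet2 were knocked down. The set was chosen by gene symbol, with earlier results of these data known. It held 10 of the 17097 genes that the array names by a single symbol. It comprised the 3 genes Gadd45a, Gadd45b and Gadd45g, the 4 DNA glycosylase genes Tdg, Mbd4, Ung and Smug1, and the 3 break repair genes Parp1, Xrcc1 and Lig3. All 10 were found, on 18 probe sets, of which 15 reached the expression filter (log2 signal of 5.40, the median of all named probe sets) on at least 1 array. By gene, 9 members passed the filter and 1, Gadd45g, stayed below it on all 4 arrays.

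Active demethylation in mammals can run through base excision. TET enzymes oxidise 5-methylcytosine, and TDG, a thymine DNA glycosylase, cuts out the formyl and carboxyl forms that result. MBD4 removes thymine from G:T mismatches at methylated CpG sites, while UNG and SMUG1 remove uracil, the product of cytosine deamination. The abasic site is opened by the endonuclease APEX1, PARP1 senses the break, XRCC1 is the scaffold on which the repair proteins assemble, and DNA ligase III, encoded by Lig3, seals it. The GADD45 proteins are small stress-induced factors without known enzyme activity of their own, which bind cell cycle and kinase proteins and have been described as adaptors between demethylation and repair.

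The cells were of the J1 embryonic stem cell line, grown without feeders in medium with fetal calf serum and LIF. The 4 groups, each on 1 array, were scramble, scramble + PRDM14, Tet1/Tet2 KD (knockdown by short hairpin RNA) and Tet1/Tet2 KD + PRDM14. Per the labels' protocols, all 4 RNAs came from the iP14 line, with or without doxycycline, so the drug and PRDM14 cannot be told apart. The scramble cells without PRDM14 are also labelled wild type. The sources used here do not give the time and dose of doxycycline or the number of clones. The question behind the series is the role of TET1 and TET2 in the response to PRDM14.

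With 1 array per group there is no spread between replicates behind any difference, and precision is limited by the 4 arrays. Tet2 read 8.46, 9.33, 7.50 and 8.15 on the scramble, scramble + PRDM14, knockdown and knockdown + PRDM14 arrays. It was thus lower on both knockdown arrays, as labelled, and the other Tet2 probe set was lower there as well. Tet1 was not analysed here. Prdm14 read at most 4.83, below the filter throughout, so the PRDM14 labels went unchecked. Embryonic stem cell markers were high, with all 11 measured members above the filter on each array and a summed signal between 14.39 and 14.53 (log2). The brightest markers weigh most in that sum, and single markers were not level. In the array order given for Tet2, Klf4 read 7.13, 7.58, 6.98 and 6.36. Its knockdown difference with PRDM14 was −1.21, the only difference past 2-fold among these markers for either factor. Nanog read 9.68, 10.20, 9.95 and 9.56, and Esrrb 8.85, 8.34, 8.31 and 7.82. Of 11 fibroblast and feeder markers 2, Acta2 and Dcn, reached the filter, and the collagen gene Col1a1 read 3.86 to 3.97. The scramble array stood apart from the others. It was the extreme array by 2-fold or more for 49 genes, against 27, 7 and 12 on the scramble + PRDM14, knockdown and knockdown + PRDM14 arrays. The Actb control at the 3′ end exceeded that at the 5′ end by 0.46 (log2) on the scramble array and by 0.35 to 0.40 elsewhere. PRDM14 in scramble cells and the knockdown without PRDM14 both start from the scramble array and have no value without it. The other pair of comparisons does not use it.

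The sequences just upstream of the 3 Gadd45 genes are shown because these members differed most between arrays. Each run is the 250 bases before the transcription start from RefSeq (GRCm38.p6), 5′ to 3′ on the gene's strand. They lie at chr6:67037408-67037657 (minus strand) for Gadd45a, chr10:80929841-80930090 (plus strand) for Gadd45b and chr13:51846425-51846674 (plus strand) for Gadd45g. Capitals mark 5 motifs searched on both strands, and no match overlaps another.
Gadd45a: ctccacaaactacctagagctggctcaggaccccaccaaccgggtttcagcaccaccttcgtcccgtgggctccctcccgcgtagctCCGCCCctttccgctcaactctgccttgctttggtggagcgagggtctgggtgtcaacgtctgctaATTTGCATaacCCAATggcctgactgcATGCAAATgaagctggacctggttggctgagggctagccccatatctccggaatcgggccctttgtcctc
Gadd45b: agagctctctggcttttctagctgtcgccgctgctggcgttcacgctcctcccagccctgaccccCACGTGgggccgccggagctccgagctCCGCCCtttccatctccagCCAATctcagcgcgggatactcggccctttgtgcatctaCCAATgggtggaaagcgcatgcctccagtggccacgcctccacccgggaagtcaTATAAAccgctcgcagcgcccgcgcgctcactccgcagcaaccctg
Gadd45g: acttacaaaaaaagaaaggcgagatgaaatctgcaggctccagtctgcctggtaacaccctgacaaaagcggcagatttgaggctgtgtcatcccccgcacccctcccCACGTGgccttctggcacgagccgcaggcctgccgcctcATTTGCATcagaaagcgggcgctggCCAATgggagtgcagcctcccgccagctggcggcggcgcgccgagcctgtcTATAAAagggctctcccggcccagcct

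The motifs were the octamer ATGCAAAT of POU factors, the CCAAT box, the E-box CACGTG, the TATA box TATAAA and the GC box GGGCGG. Gadd45a held 2 octamers, 97 to 90 and 70 to 63 bases before the start, with 1 CCAAT box between them. Gadd45g held 1 octamer, 103 to 96 bases before the start, and Gadd45b held none. Of 32851 promoter windows of this length, 1.60% contained the octamer. Gadd45b and Gadd45g each had an E-box (6.02% of windows) and a TATA box (12.4%), and Gadd45a had neither. The CCAAT box was found in all 3 (33.8% of windows), 2 times in Gadd45b, and the GC box in Gadd45a and Gadd45b (32.7%). The 3 windows held 11, 22 and 16 CG dinucleotides in the order printed, against a median of 6 over all windows (quartiles 2 and 16). Of the 3 only Gadd45b lay above the upper quartile, and the other 7 members held from 5 (Xrcc1) to 22 (Mbd4). Among the other 7 members none had the octamer or the TATA box, and Tdg, Parp1 and Lig3 had the E-box. A match describes the sequence and is not evidence of binding.

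Gadd45a, a stress-induced gene of the p53 and FOXO pathways, differed most among the members. Its probe set (1449519_PM_at) read 7.09 on the scramble array, 8.29 with PRDM14, 7.89 in knockdown cells and 7.91 in knockdown cells with PRDM14. The scramble array was the low one, and the other 3 lay between 7.89 and 8.29. In scramble cells Gadd45a was 2.29-fold higher with PRDM14, a log2 difference of 1.20, and it ranked 73rd from the top of 10366 genes. Gadd45a was the only one of the 9 members tested to pass 2-fold in that comparison, where 2.09% of all genes did. Because the members were chosen with earlier results of these data known, that share is no independent yardstick. In knockdown cells the PRDM14 difference of Gadd45a was 0.03. Without PRDM14 the knockdown array was 1.73-fold above scramble (0.79), under 2-fold, and with PRDM14 the difference was −0.38.

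Markers of other cell types also differed between arrays. The 6 measured neuroectoderm markers had a summed signal (log2) of 8.30 on the scramble array, 9.48 with PRDM14, 9.01 in knockdown cells and 9.33 in knockdown cells with PRDM14. Its members did not move as one. Nefl, the neurofilament light chain, read 5.58, 8.17, 7.66 and 8.39, lowest on the scramble array. Tubb3, a neuronal tubulin, was also lowest there, at 5.94, with a difference of 0.87 for PRDM14 and 1.06 for the knockdown without PRDM14. Neurod1 read 6.52, 7.11, 6.74 and 6.93. Pax6, a neural transcription factor, read 6.26, 7.12, 5.36 and 5.69, lowest on the knockdown arrays. Nes and the defining gene Sox1 were below the filter on all 4 arrays. Between 3 and 4 of the 6 markers reached the filter on each array. The 8 primitive endoderm markers summed to 8.06, 8.24, 8.10 and 8.16 in the same order, and 2, 4, 3 and 3 of them reached the filter. Lama1 varied most, at 4.61, 5.54, 4.69 and 4.92, past the filter on the scramble + PRDM14 array alone. Gata4 and Sox17 were below the filter on all 4 arrays. The 7 trophectoderm and 5 measured mesoderm markers ranged from 8.24 to 8.33 and from 7.99 to 8.12. The part of these cells, and of the control differences above, in the Gadd45a result was not tested. In bulk RNA, a change in the number of cells of a type and a change in RNA per cell cannot be told apart.

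Gadd45b, a family member induced by NF-kB and TGF-beta signalling, took opposite directions in the 2 backgrounds. Its probe set (1450971_PM_at) read 7.12 on the scramble array, 7.80 with PRDM14, 7.62 in knockdown cells and 7.12 in knockdown cells with PRDM14. The scramble + PRDM14 and knockdown arrays were thus high and the other 2 low. The PRDM14 difference was 0.68 in scramble cells, or 1.61-fold higher, and −0.50 in knockdown cells, or 1.41-fold lower. The knockdown difference was 0.51 without and −0.68 with PRDM14. The last value does not use the scramble array and ranked 136th from the bottom of 10322 genes. None of the 4 differences reached 2-fold.

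Gadd45g, the other family member, read 4.17, 4.57, 4.69 and 4.83 on the scramble, scramble + PRDM14, knockdown and knockdown + PRDM14 arrays. It entered no count of calls because it was below the filter throughout, and its range of 0.66 has no floor of background to be read against. Each of the Gadd45 genes is measured by 1 probe set, so no second probe set bears on these values.

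**Figure D1:**
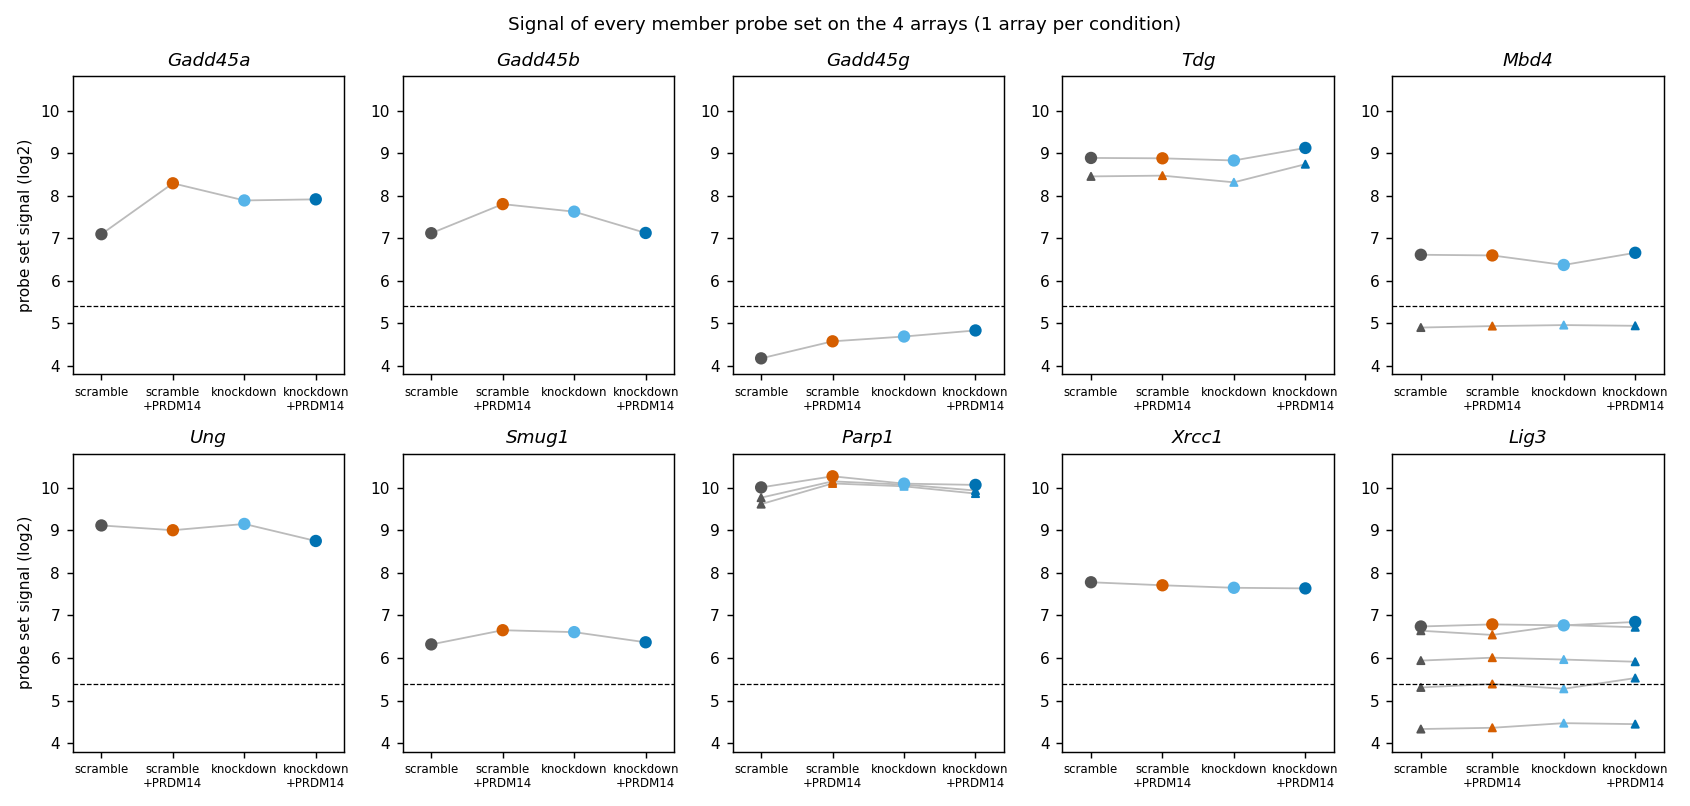
Signal (log2) of the 18 member probe sets on the 4 arrays, with a circle for the probe set of highest mean of each gene, triangles for the others and a dashed line at the filter of 5.40. Gadd45a is lowest on the scramble array (7.09), Gadd45g lies below the line, and the 3 Parp1 probe sets run in parallel.

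Among the glycosylases, Tdg was nearly level on 3 arrays and highest on the knockdown + PRDM14 array. Its brightest probe set read 8.89, 8.88, 8.83 and 9.12 in the order scramble, scramble + PRDM14, knockdown and knockdown + PRDM14, and its second read 8.45, 8.47, 8.31 and 8.74. The PRDM14 difference was −0.01 and 0.02 by these probe sets in scramble cells and 0.29 and 0.43 in knockdown cells. The knockdown difference with PRDM14 was 0.24 and 0.27. A further probe set that the annotation shares between Tdg and another gene was left out of the set. It read 9.16, 9.15, 9.14 and 9.41, also highest on the knockdown + PRDM14 array.

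Mbd4 read 6.61, 6.59, 6.37 and 6.66 on its brighter probe set and was lowest on the knockdown array. Its differences were −0.02 for PRDM14 in scramble cells, 0.29 for PRDM14 in knockdown cells, −0.24 for the knockdown without PRDM14 and 0.06 with it. The second Mbd4 probe set stayed below the filter, between 4.90 and 4.96, and differed by at most 0.06. Between probe sets of a gene, over the 3322 genes with several above the filter, differences had a pooled SD of 0.22 for PRDM14 in scramble cells and 0.15 in knockdown cells. For the knockdown it was 0.21 without and 0.16 with PRDM14. That spread is between probe sets on the same arrays, and it does not cover differences between cultures or arrays.

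The uracil glycosylases Ung and Smug1 differed in pattern. Ung read 9.12, 9.00, 9.15 and 8.75 and was lowest on the knockdown + PRDM14 array, with PRDM14 differences of −0.11 in scramble and −0.40 in knockdown cells. The knockdown difference of Ung was 0.04 without and −0.25 with PRDM14. Smug1 read 6.32, 6.65, 6.61 and 6.37, high on the scramble + PRDM14 and knockdown arrays, as Gadd45b was. Its PRDM14 differences were 0.33 and −0.24, and its knockdown differences 0.29 and −0.28. Both genes had 1 probe set, and no glycosylase reached 2-fold in any of the 4 comparisons.

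Parp1, which encodes the poly(ADP-ribose) polymerase that marks strand breaks, had 3 probe sets well above the filter, and they ran the same way. The brightest read 10.01, 10.27, 10.10 and 10.07, the next 9.77, 10.15, 10.08 and 9.94, and the dimmest 9.62, 10.10, 10.04 and 9.87. On each of them the scramble array was lowest and the scramble + PRDM14 array highest. The PRDM14 differences were 0.26, 0.38 and 0.49 in scramble cells and −0.03, −0.14 and −0.17 in knockdown cells. The knockdown differences were 0.09, 0.31 and 0.42 without PRDM14 and −0.20, −0.22 and −0.24 with it. The 3 probe sets read the same gene in the same RNA and are not replicates of a condition.

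Xrcc1 and Lig3 varied least. Xrcc1 read 7.78, 7.71, 7.65 and 7.64, a range of 0.14 on 1 probe set. The brightest of 5 Lig3 probe sets read 6.74, 6.79, 6.77 and 6.85, a range of 0.11. The other 4 had ranges between 0.10 and 0.25, and the probe set with the widest range was above the filter on 1 array. The sign of the PRDM14 difference in scramble cells was not the same on all 5, from −0.10 to 0.08.

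**Figure D2:**
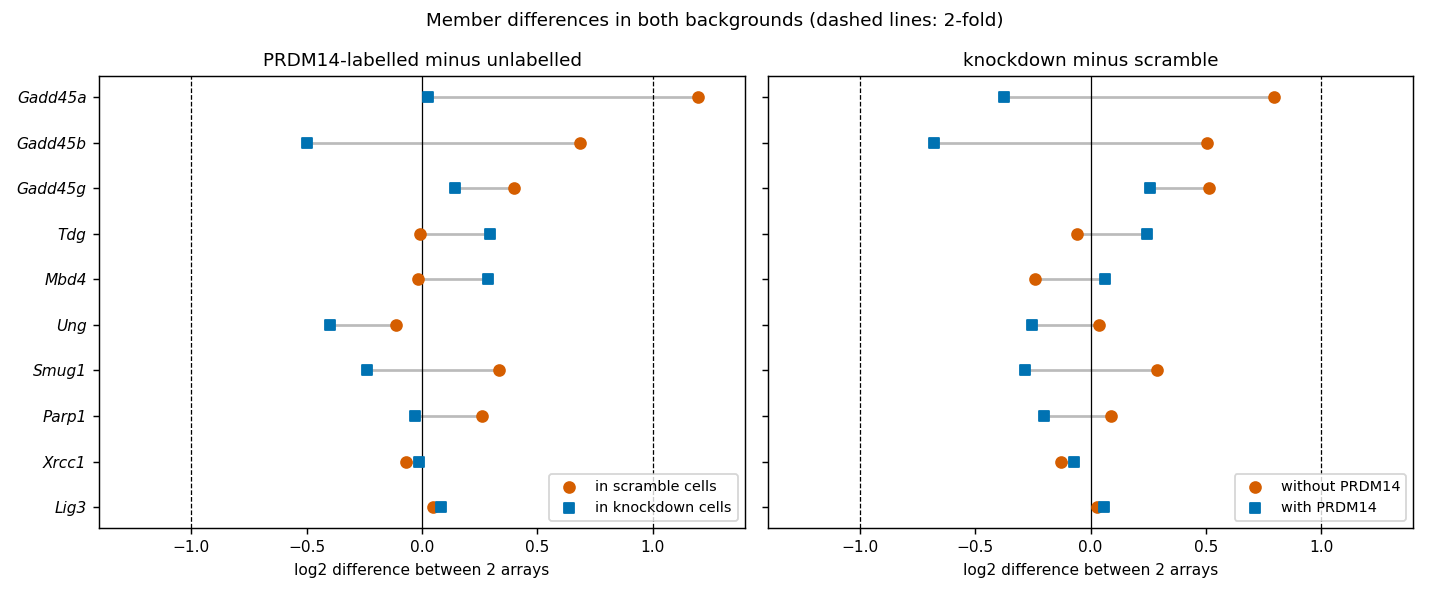
Log2 differences of the 10 members between pairs of arrays, PRDM14-labelled minus unlabelled on the left and knockdown minus scramble on the right, with circles and squares for the 2 backgrounds and dashed lines at 2-fold. Gadd45a with PRDM14 in scramble cells (1.20) is the only point past 2-fold, and Gadd45b lies on opposite sides of 0 in both panels.

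The members were next set beside all genes. In scramble cells 6 of the 10 members were higher and 4 lower with PRDM14, with a median of 0.16 against 0.00 for all genes tested. The members' signs and medians given here count Gadd45g, which was below the filter, whereas all genes tested were past it. Among the 9 tested members the middle value in scramble cells was that of Lig3, 0.05. In knockdown cells 5 were higher and 5 lower, the median was 0.01, and none of the 9 tested members was called, where 0.630% of genes were. The knockdown without PRDM14 gave 7 higher and 3 lower, a median of 0.06 and no call, against 1.06% of genes. With PRDM14 it gave 4 higher and 6 lower, a median of −0.14 and no call, against 1.10% of genes. The median size of the difference, sign aside, was 0.19, 0.19, 0.18 and 0.25 for the 10 members in these 4 comparisons and 0.14, 0.09, 0.13 and 0.11 for all genes tested. Without Gadd45g, the member of middle size was Ung (−0.11), Smug1 (−0.24), Xrcc1 (−0.13) and Tdg (0.24) in the same order. In size the middle tested member was thus below the median of all genes for PRDM14 in scramble cells. For the knockdown without PRDM14 it was about level with that median (0.130 against 0.129). With 9 members tested, call shares of 0.630% to 1.10% correspond to less than 1 call, so 0 calls is near that background. PRDM14 in scramble cells and the knockdown without PRDM14 share the scramble array.

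Scaling on housekeeping genes moved the background. Of the 12 measured, 8 were higher with PRDM14 in scramble cells and 10 with the knockdown without PRDM14. Centring each array on their median change, an alternative chosen after the data were seen, shifted the median of all genes by −0.12 and −0.09 in these comparisons. The share of higher genes among calls was then 37.3% against 52.1% as deposited in the first case and 45.6% against 58.2% in the second. Gadd45a stood at 1.07 and 0.70 in the 2 comparisons, so it passed 2-fold in the first, as before, and its difference of 0.03 for PRDM14 in knockdown cells became −0.03. The 4 Gadd45b differences kept their sign, while Lig3 changed sign in both comparisons and Ung and Parp1 did in the second, where the Parp1 value lay at about 0. Centring on the median of their levels instead gave shifts of 0.13 and 0.24, against the direction of the housekeeping genes' own change, and shares of 70.1% and 88.3%. Under it Tdg, Mbd4 and Xrcc1 changed sign in both comparisons and Ung in the first.

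**Figure D3:**
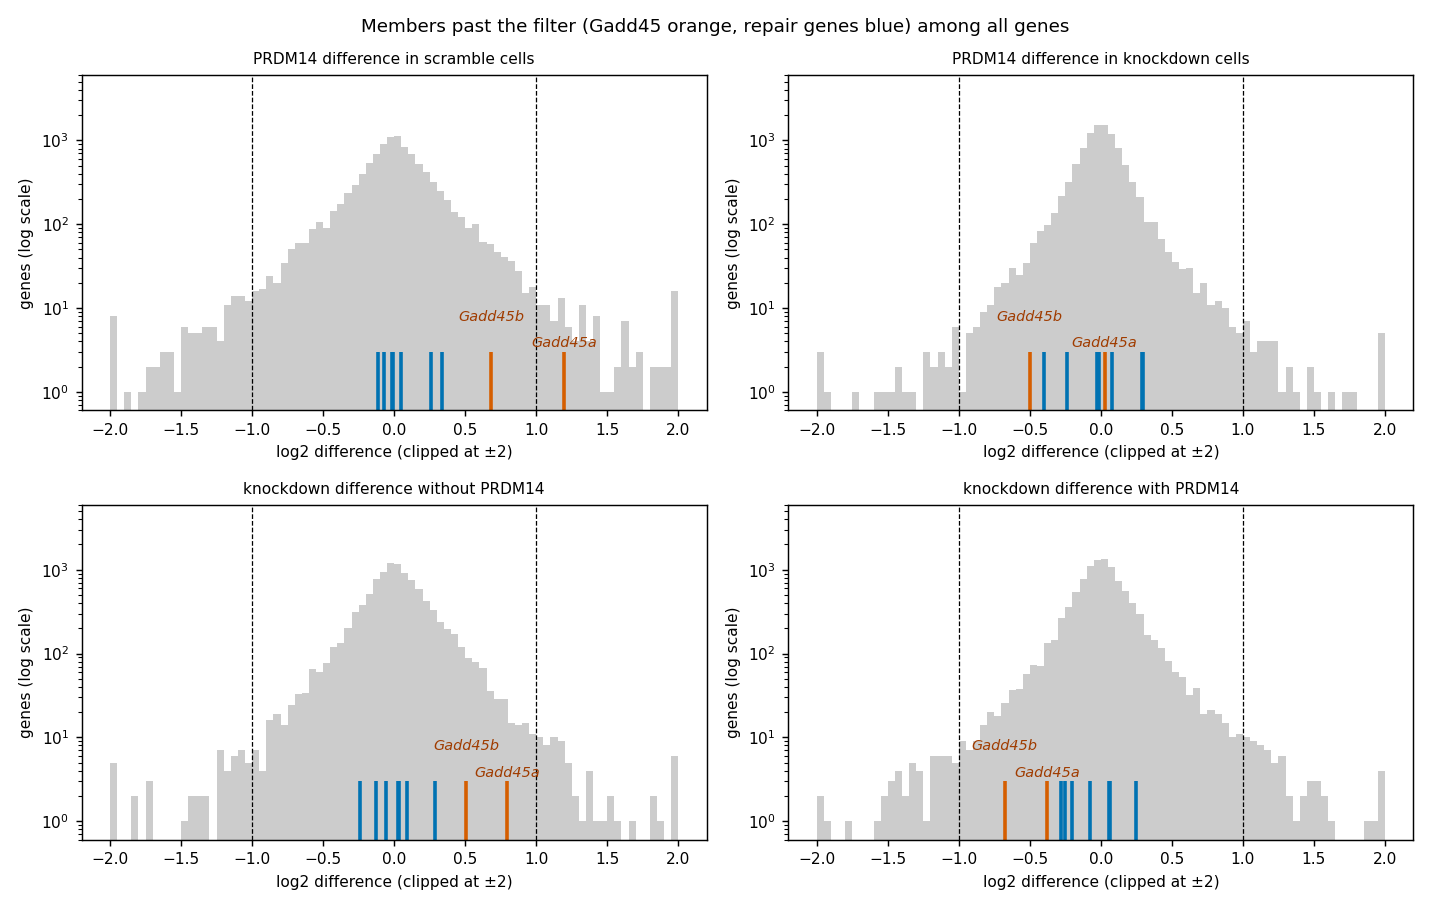
Log2 differences of all genes past the filter in the 4 comparisons (grey, gene number on a log scale, values beyond ±2 drawn at ±2), with ticks for the 9 members that passed it. Each gene is drawn by its brightest probe set. Gadd45a and Gadd45b (orange) lie toward the right for PRDM14 in scramble cells, at 1.20 and 0.68. No repair gene (blue) is drawn farther from 0 in any panel than Ung with PRDM14 in knockdown cells (−0.40). By probe sets not drawn, Parp1 reached 0.49 with PRDM14 in scramble cells and Tdg 0.43 in knockdown cells.

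The dependence on the knockdown, taken as the PRDM14 difference in knockdown cells minus that in scramble cells, was past 2-fold for Gadd45a (−1.17) and Gadd45b (−1.18). These were 2 of 9 members, where 2.27% of 10519 genes were past 2-fold. The members were chosen with earlier results of these data known, so the count is not independent of the data. Gadd45a and Gadd45b ranked 90th and 87th from the bottom. Smug1 stood at −0.57, the 3 Parp1 probe sets at −0.29, −0.52 and −0.66, and Ung at −0.29. Tdg and Mbd4 lay on the other side of 0, both at 0.30. Between probe sets of a gene this quantity had a pooled SD of 0.25. It contains the scramble array and has no test. Over all genes 43.1% of its calls were higher, against 55.4% after centring on the median change of the housekeeping genes and 19.5% after centring on their median level.

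The average effects were tested in limma with PRDM14 and the knockdown as additive factors, which takes the dependence of one on the other as error and leaves 1 residual degree of freedom. Gadd45a was 1.53-fold higher with PRDM14 on average (log2 0.61, SE 0.34), with a limma adjusted p of 0.783, and was higher in both backgrounds as deposited. For Ung the average was −0.26 (SE 0.14), lower in both backgrounds, with a limma adjusted p of 0.782. No member passed for either factor, and no gene did, with 0.00% of 10519 called for each. At an unadjusted p under 0.05 limma listed 638 genes (6.07%) for PRDM14 and 604 (5.74%) for the knockdown, and none of the 9 members. After centring on the median level of the housekeeping genes, a shift opposite to their own change, Gadd45a passed for PRDM14 (limma adjusted p = 0.0467). Under the other settings run its adjusted p lay between 0.601, after centring on the housekeeping genes' median change, and 0.818. A p above the threshold in this design does not show that a gene was unaffected.

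By array, the scramble array was the lowest of the 4 for 6 of the 10 members, namely Gadd45a, Gadd45b, Gadd45g, Smug1, Parp1 and Lig3. Over all genes past the filter it was lowest for 31.1%. Gadd45g counts among the 10 members here, although it did not reach the filter that the shares of all genes require. For Lig3 the scramble array read 6.74 against 6.77 on the knockdown array, and several of its other probe sets were lowest on other arrays. For Gadd45b the margin over the knockdown + PRDM14 array was under 0.01 on its log2 values of 7.116 and 7.122. The scramble + PRDM14 array was the highest for Gadd45a, Gadd45b, Smug1 and Parp1, against 25.9% of all genes. The knockdown + PRDM14 array was highest for Gadd45g, Tdg, Mbd4 and Lig3, against 21.9%.

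Gadd45a was the member with a range of at least 1 over the arrays, and the genes nearest to it in pattern were Cetn2, Gpx1 and Wt1. Nearness was the root mean square distance between log2 values on the 4 arrays after each gene's mean was taken off, over 10518 other genes. Cetn2, which encodes a centrin of the centrosome that also serves in nucleotide excision repair, was at 0.015 and read 7.54, 8.71, 8.35 and 8.35. Gpx1, a glutathione peroxidase, was at 0.016 with 10.54, 11.75, 11.34 and 11.40. Wt1, a zinc finger transcription factor, was at 0.024 with 4.69, 5.87, 5.47 and 5.55, below the filter on the scramble array. Apex1, the abasic endonuclease that acts after the glycosylases, was the next after 1 other gene at 0.051, with 7.61, 8.79, 8.49 and 8.37. Gadd45b ranked 637th at 0.30. With 4 arrays many genes can share such a profile, and all of these are low on the scramble array.

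**Figure D4:**
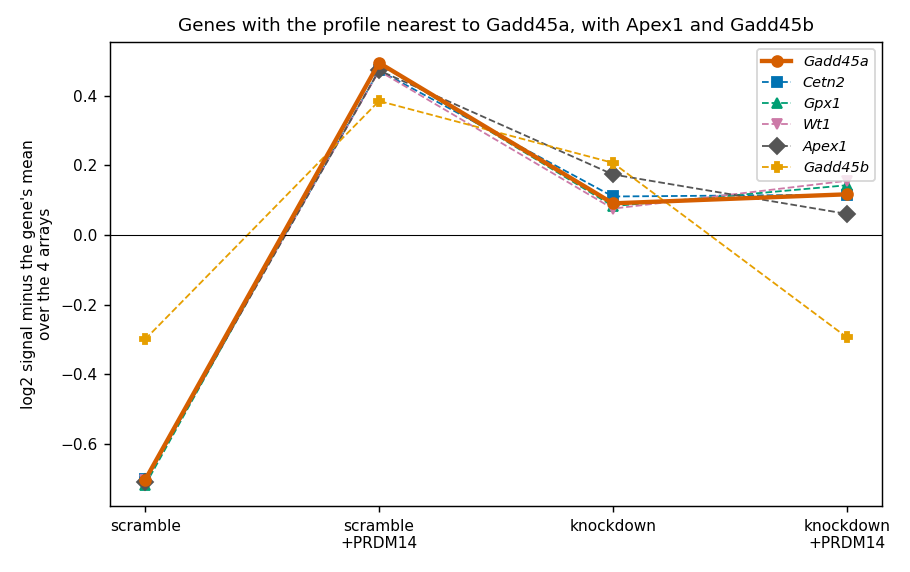
Log2 signal minus each gene's own mean over the 4 arrays for Gadd45a, its 3 nearest genes Cetn2, Gpx1 and Wt1, and Apex1 and Gadd45b. The first 5 overlie one another, low on the scramble array and high on scramble + PRDM14, while Gadd45b is low on knockdown + PRDM14, where it read 7.12.

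In the rest of the repair pathway few genes were called. Over all genes 2.09% and 0.630% were called for PRDM14 in scramble and knockdown cells. For the knockdown the shares were 1.06% without and 1.10% with PRDM14. In lists this short the absence of a call is near that background. Of the other DNA glycosylases 6 of 7 were measured, 5 passed the filter and none reached 2-fold in any comparison. Their widest ranges were 0.49 for Neil1, which acts on oxidised bases, 0.42 for Nthl1, which removes oxidised pyrimidines, and 0.40 for Mpg, which removes alkylated purines. Of 19 other base excision and single-strand break repair genes 18 were measured and 16 passed the filter in each comparison. Of them 1, Apex1, was called, with PRDM14 in scramble cells (1.18), and its dependence on the knockdown was −1.29. The median of the 18 was −0.03 for PRDM14 in scramble cells and 0.01 in knockdown cells, and −0.02 and −0.01 for the knockdown without and with PRDM14. The medians of the 6 glycosylases in that order were −0.17, −0.04, −0.02 and 0.08.

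Of the TET and cytidine deaminase genes 5 of 7 were measured and 4 passed the filter. Tet2 was called, lower by the knockdown with PRDM14 (−1.18), where 1.10% of all genes were called. By the other Tet2 probe set that difference was −0.58, under 2-fold. Tet2 is a target of the design, so its direction is no independent result. The medians of these 5 were 0.69, 0.09, −0.02 and −0.21 in the same order of comparisons. The values 0.69, 0.09 and −0.21 were those of Apobec2, which was below the filter on all 4 arrays, so they do not describe the list. For PRDM14 in scramble cells the other genes stood at 0.865 (Tet2), 0.86 (Apobec3), 0.14 (Tet3) and −0.24 (Apobec1).

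No partner of the GADD45 proteins was called in any comparison, where 0.630% to 2.09% of all genes were, so the absence of calls is near that background. Of 11 genes 9 were measured and passed the filter, and the medians were −0.14, −0.13, 0.09 and 0.13. Cdkn1a, the cyclin-dependent kinase inhibitor p21, read 7.93, 7.28, 7.74 and 7.36, lower on both PRDM14 arrays. Ing1, a chromatin reader of the ING family, read 9.38, 9.93, 9.62 and 9.34, high on the scramble + PRDM14 array like Gadd45b. The mitotic kinase gene Cdk1 had a range of 0.41.

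Among genes known to regulate Gadd45 transcription, 12 of 14 were measured, 10 passed the filter and 3 were called in at least 1 comparison. By comparison 2 were called for PRDM14 in scramble cells, 0 for PRDM14 in knockdown cells, 2 for the knockdown without PRDM14 and 1 with it, against 2.09%, 0.630%, 1.06% and 1.10% of all genes. Ddit3, the stress factor CHOP, read 6.96, 5.70, 5.85 and 5.91, high on the scramble array, where Gadd45a was low. It was thus lower with PRDM14 in scramble cells (−1.26) and with the knockdown without PRDM14 (−1.11), but not with PRDM14 in knockdown cells (0.07) or the knockdown with PRDM14 (0.22). Egr1, an immediate early zinc finger gene, read 7.94, 7.44, 5.78 and 6.39 and was lower on the knockdown arrays, with differences of −2.16 without and −1.04 with PRDM14. Myc, a repressor of Gadd45a in other cells, read 6.72, 8.04, 7.52 and 7.83, lowest on the scramble array as Gadd45a was. Its PRDM14 difference was 1.32 in scramble and 0.32 in knockdown cells. The medians of the 12 were −0.13, 0.01, −0.15 and 0.03.

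Of the p53 targets 15 of 16 were measured and 14 passed the filter, and 11 were lower and 4 higher with PRDM14 in scramble cells, with a median of −0.22. Perp, a membrane protein of desmosomes and apoptosis, was the 1 called, higher by 1.49, with 6.26, 7.74, 7.53 and 7.78 on the arrays. In that comparison 2.09% of all genes were called. Without PRDM14 the knockdown gave 12 lower and 3 higher, a median of −0.23 and Perp at 1.27, also a call (1.06% of genes). The other medians were −0.01 for PRDM14 in knockdown cells and 0.03 for the knockdown with PRDM14. Of 16 housekeeping genes 12 were measured and none was called, with medians of 0.14, 0.04, 0.10 and −0.01. With 0.630% to 2.09% of all genes called, that is near the background. The widest ranges among housekeeping genes belonged to Tfrc (0.84), Eef2 (0.62) and Gusb (0.49).

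**Figure D5:**
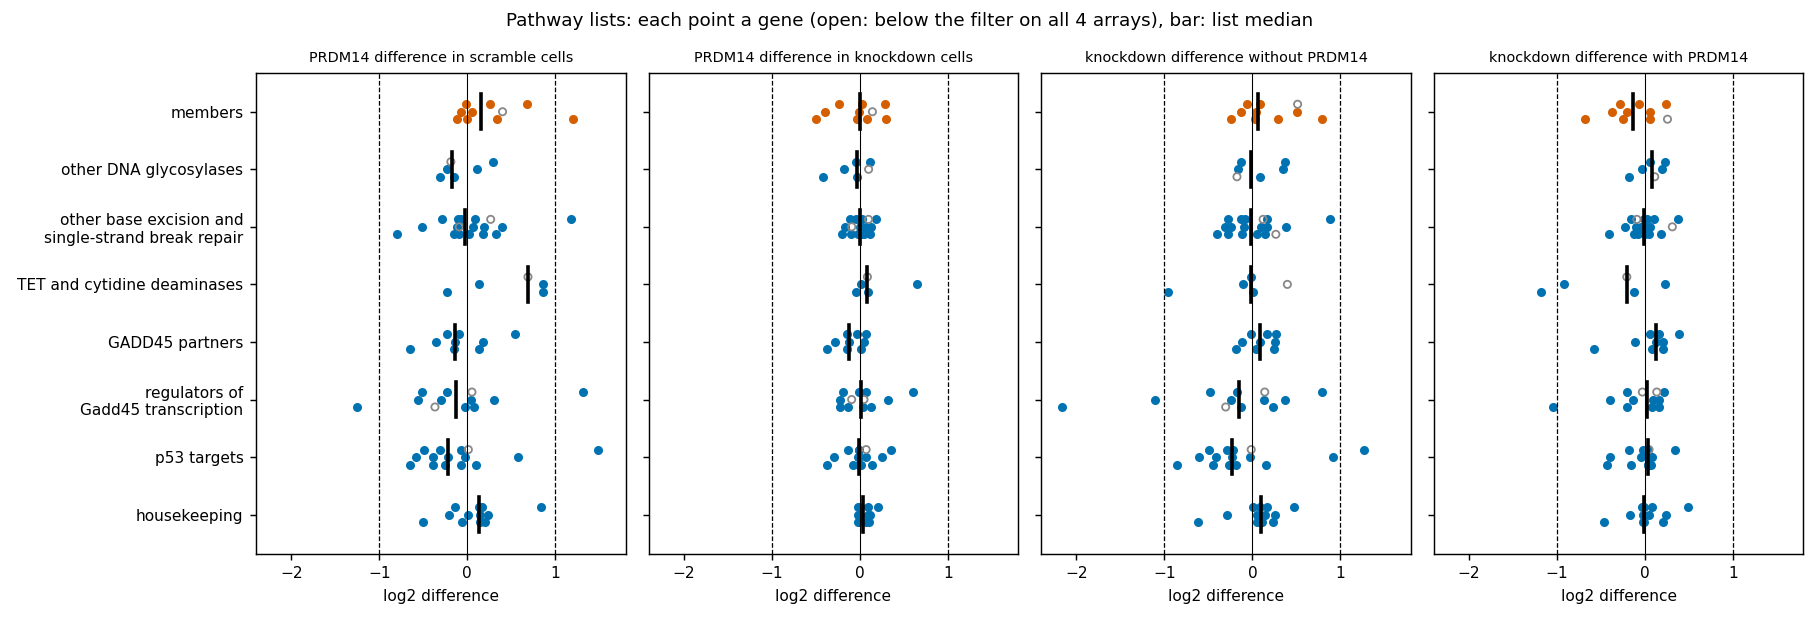
Log2 differences in the 4 comparisons for the members (orange) and 7 other lists (blue), with an open circle for a gene below the filter on all 4 arrays, a bar at each list's median and dashed lines at 2-fold. In the first panel the members' median, with Gadd45g counted, is 0.16 and that of the p53 targets −0.22, and most genes of all lists lie inside the dashed lines.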

How the data were processed

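The authors deposited 1 table of log2 probe set signals for 4 Affymetrix 3′ expression arrays, 1 per condition, already brought to a common distribution, which hides any change common to all genes. Per the submitters' processing notes, Affymetrix Expression Console was used; the sources used here do not give its version, summary method or background correction. The log2 base was inferred from the range, 2.78 to 13.20. Of 45141 probe sets, 28898 carried 1 gene symbol in the platform annotation and 551 several; the latter were left out. The Entrez identifiers of 28689 matched RefSeq, and all 10 member symbols were unchanged. The probe set of highest mean stood for a gene, and every member probe set was also read.

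A gene was tested in a comparison if the higher array reached the filter and called past 2-fold, which is a rule of size. Average effects were fitted with limma 3.58.1 in R 4.3.3 (lmFit, eBayes with trend; Benjamini-Hochberg at 0.05), and the fit was tested on simulated data. Alternatives changed the fold, the filter, low values, the probe set summary, the scaling, the trend and the threshold; centring on the median change of the housekeeping genes was chosen after the data were seen. The members and all gene lists were chosen with earlier results of these data known. Named genes of a list were those called, or else the 3 of widest range past the filter. Promoter windows came from RefSeq, all 10 members matched, and protein sequences were not used here.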

Additional observations from a re-analysis of the deposited data

Results flagged for a closer look

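In 7 members past the filter the same contrast had opposite signs in the 2 backgrounds, and with 1 array per condition none of these differences was tested. The share of all genes with opposite signs was not taken, so the counts below do not set the members apart from other genes. The PRDM14 difference changed sign between scramble and knockdown cells in 5 of them (Gadd45b, Tdg, Mbd4, Smug1 and Parp1), and the knockdown difference did so between arrays without and with PRDM14 in all 7, with Gadd45a and Ung added. The difference between the backgrounds, which is the same number for either contrast, was −1.17 for Gadd45a, −1.18 for Gadd45b, −0.57 for Smug1, −0.29 for Parp1 and −0.29 for Ung. It was 0.30 for Tdg and 0.30 for Mbd4. Only Gadd45a and Gadd45b exceed 2-fold among them. Several of the signs rest on a value close to 0. The PRDM14 difference was −0.01 for Tdg and −0.02 for Mbd4 in scramble cells and −0.03 for Parp1 in knockdown cells, and the knockdown difference was 0.04 for Ung without PRDM14. With probe sets averaged within a gene, Tdg and Mbd4 were above 0 in scramble cells, and the count of 5 fell to 3 (Gadd45b, Smug1 and Parp1). Centred on the median change of the housekeeping genes, the counts were 7 for PRDM14, with Gadd45a and Lig3 added, and 6 for the knockdown, with Lig3 in and Ung and Parp1 out. Centred on their median level, the counts were 6 and 6, both with Gadd45a, Gadd45b, Ung, Smug1, Parp1 and Xrcc1. The members flagged thus depended on the scaling. Each difference between the backgrounds includes the scramble array.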

How the results depend on the processing

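Most counts of called members were the same under the 9 alternatives for a 2-array comparison and the 9 for an average effect. The exceptions follow, and the cause was not tested beyond the settings' own construction. At a 1.5-fold threshold 2 members were called for PRDM14 in scramble cells (Gadd45a and Gadd45b), 1 for the knockdown without PRDM14 (Gadd45a) and 1 with PRDM14 (Gadd45b). At 3-fold 0 were called for PRDM14 in scramble cells and 0 for the dependence on the knockdown. Centred on the median level of the housekeeping genes, Gadd45a made 1 call for the knockdown without PRDM14 and 1 for the average PRDM14 effect, where 294 genes passed against 0 as deposited, and 330 against 0 for the average knockdown effect. That median fell from 11.32 on the scramble array to 11.19 with PRDM14 and 11.07 in knockdown cells, a value set by the genes of middle level, among them Eef2 (−0.50 and −0.62), while most of the 12 read higher. Centred on their median change, chosen after the data were seen, no count of called members differed from that as deposited. With probe sets averaged within a gene, 43 genes in place of 65 were called for PRDM14 in knockdown cells. Over all genes the 1.5-fold threshold called 849, 290, 527, 448 and 957 and the 3-fold one 52, 13, 21, 12 and 49, for the 4 comparisons and the dependence, in place of 217, 65, 110, 114 and 239. No called member difference changed sign. No paired analysis was possible because each condition has 1 array. The lack of a background estimate limits what can be said of Gadd45g.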

Other observations

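A pair of pathway genes outside the naming rule were singled out after their values were seen. Tdp1, which frees topoisomerase I and other adducts from DNA ends, read 7.29 on the scramble array, 6.49 on scramble + PRDM14, 6.88 on knockdown and 6.86 on knockdown + PRDM14, so it was highest where Gadd45a and Apex1 were lowest. Apobec3, a cytidine deaminase that restricts retroviruses, read 6.87, 7.73, 6.85 and 6.80 in the same order, high on the scramble + PRDM14 array and level on the other 3. Its PRDM14 difference was 0.86 in scramble cells and −0.04 in knockdown cells. Neither reached 2-fold.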
